A study of Mus musculus with 6 samples.

Results

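The mapped probe sets without a gene symbol were, as a class, dimmer than probe sets with exactly 1 symbol, and were at least 2-fold higher on the arrays labelled ATF3-CKO more often than they were at least 2-fold lower (359 and 129, or 1.08% and 0.389%, against a background over all probe sets of 1.18% and 0.838%). Of the 359, 152 carried a Y chromosome code. Without Y codes the counts were 207 and 126 as deposited, and 162 and 159 with the array medians set equal. Under the other scalings tried they ran from 166 and 157 to 275 and 112. With 1 array left out at a time, the higher count without Y codes ran from 163 to 401. The 163, beside 148 lower, came without WT replicate 2, and the 401, beside 133 lower, without WT replicate 3. Unnamed probe sets are the probe sets of the Clariom D mouse array whose identifier begins with TC, the mark of a transcript cluster placed on the genome, and to which the platform's annotation gives no symbol. There were 33121 of them, or 50.4% of the 65770 mapped probe sets, and they are called unnamed here. The other mapped probe sets comprised 30481 with exactly 1 symbol and 2168 with several. The annotation used here does not list the unnamed probe sets at all, so "unnamed" does not mean that no gene lies there.

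Total RNA of bone marrow-derived macrophages (BMDMs) from adult C57BL/6J mice was hybridised to 6 arrays, 3 labelled ATF3-CKO_rGAS6 and 3 labelled WT_rGAS6. All cultures had grown in macrophage colony-stimulating factor at 20 ng/mL, had received recombinant GAS6, a protein that binds and activates the receptor MerTK, and were taken 24 h after hypoxia and reoxygenation (HR). In the ATF3-CKO mice a Cre recombinase driven from the myeloid gene Lyz2 deletes a floxed Atf3 allele, and the WT mice were littermates with the floxed allele and no Cre. The presence of Cre and the loss of ATF3 cannot be told apart in this design, and the labels call the arrays of a group biological replicates. ATF3 is a stress-induced transcription factor that can repress or activate its targets.

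Atf3 itself went against the label. Its single probe set read 9.20, 9.26 and 9.25 (log2 signal) on the arrays labelled ATF3-CKO, against 8.56, 8.46 and 8.38 on the WT arrays. The difference was 0.77 ± 0.08 (SE, adjusted p = 0.00538, limma), so every direction below is that of arrays as labelled. It is not known here whether the probes of Atf3 lie in the deleted part. Lyz2, the gene that drives the Cre, was listed as a check of the labels too. It read 19.39, 19.35 and 19.51 on the arrays labelled ATF3-CKO, against 18.90, 19.14 and 18.73 on the WT arrays. The groups did not overlap, and the difference of 0.49 ± 0.12 (SE) did not pass the test (adjusted p = 0.0817, limma). Of 8 macrophage markers, all 8 were above the median level of all probe sets, with mean levels of 13.37 to 13.57 on the arrays labelled ATF3-CKO and 13.26 to 13.96 on the WT arrays. Of these Cd14, a lipopolysaccharide co-receptor, and Mertk, the GAS6 receptor, rose by 1.08 and 1.36 on the log2 scale (adjusted p = 0.0225 and 0.0499). With 1 array left out, the Mertk call held only without WT replicate 2, and was otherwise lost (adjusted p of 0.0639 to 0.156, limma). The Cd14 call was lost without replicate 1 or 3 labelled ATF3-CKO. Itgam, the integrin alpha M subunit, fell 12.3-fold (adjusted p = 0.000128). Of 12 neutrophil markers 7 fell and none rose, with mean levels of 6.54 to 7.54 on the arrays labelled ATF3-CKO and 8.93 to 9.26 on the WT arrays. Elane was the dimmest of them, at a level of 3.46. The 5 osteoclast markers (2 lower, Ctsk and Acp5) had mean levels of 5.22 to 5.27 on the arrays labelled ATF3-CKO and 6.35 to 6.46 on the WT arrays. No marker of fibroblasts, lymphocytes or dendritic cells passed the test, of 6, 4 and 3 measured. The part of these cell types in the results below was not tested.

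Transcript clusters without a gene name come from several kinds of DNA. Some are stretches of a known gene's introns or of RNA that runs past its end, some are separate non-coding RNAs, and some are copies of repeated families whose probes cannot tell one copy from the next. On the mouse Y chromosome most of the sequence consists of such amplified families, while a few single-copy genes lie on the short arm. The kind of DNA behind each unnamed probe set is not known here.

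The identifier carries a chromosome code and a running number, and both were checked on the one-symbol probe sets. The code was that of the gene's chromosome in RefSeq for 99.7% of 30125 of them, and 98.8% of 30009 consecutive pairs stood in genome order. Neighbours are therefore given below by number order, as a description of position and never as a name for the unnamed member. No probe sequence of an unnamed probe set was used here. The sequences below are promoters from RefSeq (GRCm38.p6), from 250 bases before to 50 after the start. They belong to some of the named genes that lie within or beside the largest changes of unnamed probe sets.
8430431K14Rik, chr19:31216347-31216646, minus strand, inside the longest run of higher unnamed probe sets: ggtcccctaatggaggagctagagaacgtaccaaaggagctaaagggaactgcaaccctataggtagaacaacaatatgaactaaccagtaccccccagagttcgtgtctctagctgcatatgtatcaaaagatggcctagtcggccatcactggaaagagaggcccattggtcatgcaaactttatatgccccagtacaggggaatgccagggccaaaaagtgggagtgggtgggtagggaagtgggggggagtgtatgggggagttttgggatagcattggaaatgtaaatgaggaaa
Asah2, chr19:32103091-32103390, minus strand, the next one-symbol gene past that run: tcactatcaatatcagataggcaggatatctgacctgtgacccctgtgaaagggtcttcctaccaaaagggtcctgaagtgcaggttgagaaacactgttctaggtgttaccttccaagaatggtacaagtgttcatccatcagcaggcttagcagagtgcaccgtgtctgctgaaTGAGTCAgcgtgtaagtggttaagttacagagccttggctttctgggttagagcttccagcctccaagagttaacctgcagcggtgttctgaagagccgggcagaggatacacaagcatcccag
G530011O06Rik, chrX:169978868-169979167, minus strand, next to the most strongly lower unnamed probe set of chromosome X: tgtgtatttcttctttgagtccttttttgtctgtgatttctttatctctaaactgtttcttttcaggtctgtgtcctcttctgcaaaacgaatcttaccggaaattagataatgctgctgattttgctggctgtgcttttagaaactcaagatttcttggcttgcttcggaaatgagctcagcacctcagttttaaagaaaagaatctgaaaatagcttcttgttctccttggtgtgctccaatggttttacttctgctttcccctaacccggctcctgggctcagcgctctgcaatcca
Capitals mark the AP-1 motif, TGACTCA or its complement TGAGTCA. The cyclic AMP response element TGACGTCA was searched too, on both strands, and these motifs do not overlap. The promoter of Asah2 held the AP-1 letters, and the promoters of 8430431K14Rik and G530011O06Rik held neither motif. The promoters of Prkg1, which comes before the run in number order, are not printed and held neither motif. Over all 32851 RefSeq promoters, 5.20% held the AP-1 letters and 1.79% the cyclic AMP response element. A second promoter of G530011O06Rik, at chrY:90755001-90755300, shared an unbroken stretch of 168 bases with the one on chromosome X, so the gene has a place on both sex chromosomes in RefSeq.

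Unnamed probe sets had a median level of 4.00 (log2 signal, mean over the 6 arrays; quartiles 3.36 and 5.60), against 4.74 for one-symbol probe sets (quartiles 3.66 and 7.65). The class of olfactory, vomeronasal and taste receptors, genes that macrophages are not known for, had a median of 3.59 over 1775 probe sets. The array's 23 background controls had a median of 2.77 and a highest level of 5.30. Its 5222 controls marked as negative were brighter, with a median of 5.89 and a highest level of 19.50. Of the unnamed probe sets 42.6% lay above the median of all probe sets, against 56.5% of the one-symbol ones, and 5.22% reached a level of 10 or more, against 12.1%. Most unnamed probe sets thus lay in the range that the background controls and the chemoreceptors also covered. A small number were among the brightest on the array. The 5 brightest averaged 19.61 to 19.86 in either group, and TC0900000003.mm.1, the first of them, read 19.89, 19.66 and 19.78 on the arrays labelled ATF3-CKO and 19.93, 19.85 and 19.81 on the WT arrays. None of these 5 passed the test, with differences between -0.09 and 0.03 on the log2 scale.

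**Figure D1:**
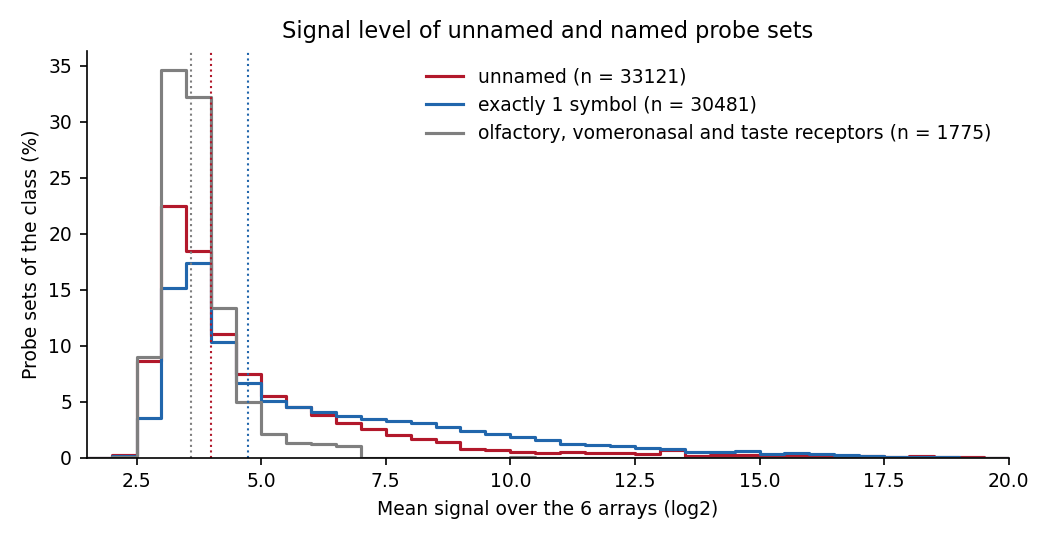
Percentage of probe sets (vertical axis) in steps of the mean log2 signal over the 6 arrays (horizontal axis) for unnamed probe sets, one-symbol probe sets and the olfactory, vomeronasal and taste receptors among the one-symbol ones. Dotted lines mark the medians of 4.00, 4.74 and 3.59, and the unnamed class has the larger share of its members at the dim end.

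Between the groups, 371 unnamed probe sets rose and 266 fell on the arrays labelled ATF3-CKO (limma, adjusted p under 0.05 over all 65956 probe sets tested). These were 1.12% and 0.803% of the class, against a background over all probe sets of 1.17% higher and 1.68% lower (2.85% either way). One-symbol probe sets gave 368 higher and 776 lower, or 1.21% and 2.55%. The share of higher calls was close to the background, and the share of lower calls was below it. By size alone, 359 unnamed probe sets (1.08%) were at least 2-fold higher and 129 (0.389%) at least 2-fold lower, against a background of 1.18% and 0.838% (2.02% either way). The one-symbol counts were 264 (0.866%) and 394 (1.29%). Of the probe sets at least 2-fold apart, 73.6% of the unnamed and 40.1% of the one-symbol ones were higher. Only 93 of the 359 and 106 of the 129 also passed the test, so most of the 2-fold higher unnamed probe sets had a spread between arrays that left them short of it. The 3 arrays of each group were wholly apart for 16.9% of unnamed probe sets in the higher direction and 4.84% in the lower one, against a background of 16.5% and 7.51%.

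The direction of the calls hung on the scaling of the arrays. The median array level of unnamed probe sets was 4.02, 4.11 and 4.03 on the arrays labelled ATF3-CKO and 3.96, 3.92 and 4.03 on the WT arrays, and these ranges overlapped. Their median log2 difference was 0.071, beside 0.047 for one-symbol probe sets and 0.059 for all. With the medians of the arrays set equal it was -0.014, and with those of the one-symbol probe sets set equal -0.0040, so the class as a whole has no settled direction. Higher calls made up 58.2% of the unnamed calls as deposited (32.2% for one-symbol probe sets), but 43.1% (17.5%) with medians set equal, 49.2% (25.3%) after quantile normalization, 46.8% (19.4%) with one-symbol medians set equal and 47.1% (26.8%) after cyclic loess. With the background controls set equal it was 71.9% (42.3%). The median difference of unnamed probe sets minus that of one-symbol ones was 0.024 as deposited. Another quantity, the unnamed median of each array minus its one-symbol median, had an SD of 0.013 within groups over arrays. That SD does not measure the spread of the 0.024. Of the 5 other scalings, those that set array, one-symbol or background control medians equal shift whole arrays. They cannot change the value of 0.024. After quantile normalization the value was 0.023, and after cyclic loess 0.021. Among probe sets above the median level it was 0.074. The value is a description of these 6 arrays, without a test. The 2-fold counts moved less, with 309 to 430 unnamed probe sets higher and 115 to 162 lower over the same scalings, and the higher ones outnumbered the lower ones in each.

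The number of calls also moved with single arrays. Without replicate 1, 2 or 3 labelled ATF3-CKO there were 166, 108 and 44 unnamed probe sets called higher and 167, 98 and 77 called lower. Without WT replicate 1 there were 112 and 96. Leaving out WT replicate 2 gave 429 and 250, and leaving out WT replicate 3 gave 538 and 229. The counts at least 2-fold higher and lower were 583 and 136 without WT replicate 3, and 242 and 151 without WT replicate 2. With the Y codes left out as well, they were 401 and 133, and 163 and 148.

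Set side by side at equal signal, unnamed probe sets were at least 2-fold higher more often than one-symbol ones from a level of 8 to a level of 15, and less often 2-fold lower from a level of 4 to a level of 15. In the bin from 8 to 9, 12.2% of 1027 unnamed probe sets were at least 2-fold higher, against 3.03% of 1784 one-symbol ones. Leaving out those with a Y code, these shares were 3.65% and 1.37%. In the same bin 1.85% of unnamed and 3.20% of one-symbol probe sets were at least 2-fold lower. Below the median level of all probe sets only 2 of 19019 unnamed probe sets were 2-fold higher and 3 were 2-fold lower, so the dim majority of the class contributed almost nothing to these counts.

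**Figure D2:**
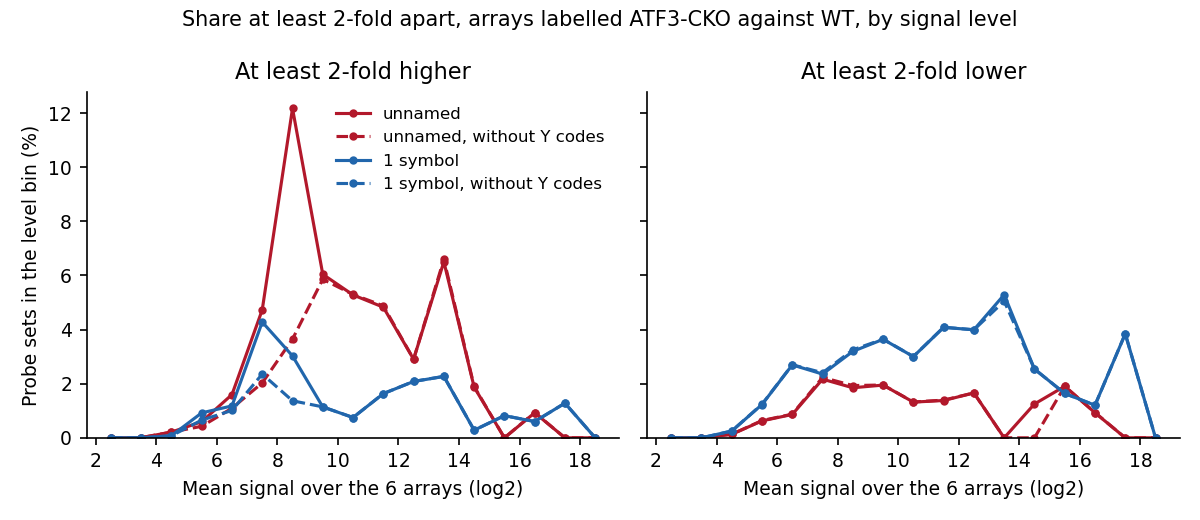
Percentage of probe sets in each level bin (mean log2 signal over the 6 arrays, bins from 2 to 19) that were at least 2-fold higher (left) or lower (right) on the arrays labelled ATF3-CKO than on the WT arrays. The unnamed class peaks at 12.2% between 8 and 9, and at 3.65% there once the Y codes are left out (dashed lines).

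By chromosome code, the 2-fold higher unnamed probe sets gathered in a few places. Over chromosomes 1 to 19 their share ran from 0.195% on chromosome 18 to 2.56% on chromosome 19, with a median of 0.436%. It was 50.7% on Y, where 152 of 300 were at least 2-fold higher, and 15.8% on the mitochondrial code, where 3 of 19 were. The share at least 2-fold lower ran from 0 of 1026 on chromosome 18 to 0.845% on chromosome 16. They also stood side by side. Of 351 unnamed probe sets at least 2-fold higher and placed on a numbered, X, Y or mitochondrial code, 65.2% had an adjacent probe set that was 2-fold higher too, against 1.90% of all such unnamed probe sets. Of 128 that were at least 2-fold lower 43.0% had a 2-fold lower neighbour, against 1.44%. Without the Y codes the first of these shares was 46.7%. There were 46 runs of at least 3 consecutive probe sets with 2 or more unnamed members, all past 2-fold in 1 direction, 37 of them higher and 9 lower. Of these, 27 lay on Y.

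**Figure D3:**
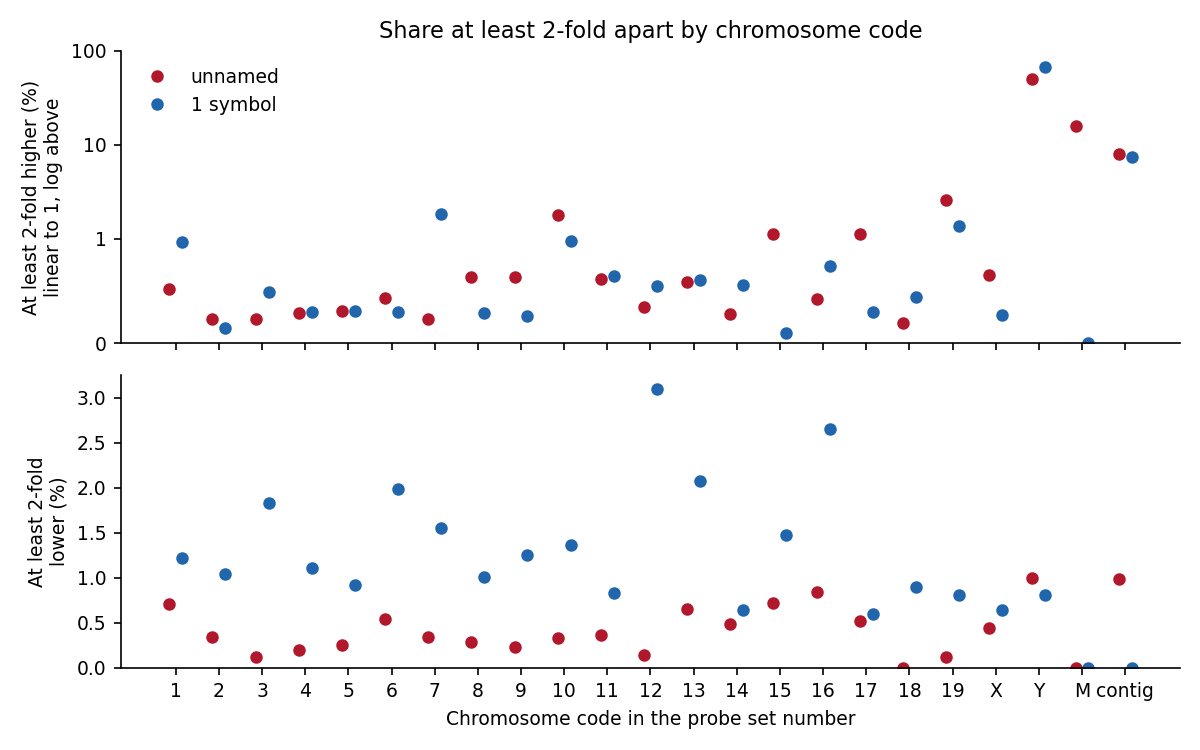
Percentage of unnamed and of one-symbol probe sets at least 2-fold higher (upper panel, axis linear to 1 and logarithmic above) and at least 2-fold lower (lower panel) by chromosome code. Y stands apart in the upper panel at 50.7% for unnamed probe sets, and chromosome 19 is the highest numbered chromosome for them at 2.56%.

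The longest run of unnamed members lay on chromosome 19. It held 17 consecutive probe sets, of which 15 were unnamed, and all 15 rose. The named members were Gm6642, a predicted gene, and 8430431K14Rik. In number order it began after Prkg1, the cGMP-dependent protein kinase, and ended before Asah2, a neutral ceramidase. The promoters of Prkg1, at chr19:31664321-31664620 and chr19:31764984-31765283, lie past that of 8430431K14Rik on the same minus strand. With number order following genome order, Prkg1 therefore spans the place of 8430431K14Rik, and at least that part of the run lies within Prkg1. Whether the run is part of the Prkg1 transcript was not tested. All 10 of the largest rises among unnamed probe sets came from this run. TC1900001379.mm.1 was the largest, at 13.59, 12.58 and 13.17 on the arrays labelled ATF3-CKO against 9.29, 10.25 and 9.06 on the WT arrays. This was an 11.9-fold difference (3.58 ± 0.36 on the log2 scale, SE, adjusted p = 0.00435). The steadiest of the 10 was TC1900001376.mm.1, at 12.49, 12.23 and 12.37 on the arrays labelled ATF3-CKO against 8.47, 9.33 and 8.70 on the WT arrays, or 11.6-fold (3.53 ± 0.21, adjusted p = 0.000622). In both, the groups were more than 2 log2 units apart at their nearest arrays. TC1900001370.mm.1 read 10.77, 9.86 and 10.66 on the arrays labelled ATF3-CKO against 6.85, 7.72 and 6.11 on the WT arrays, and its adjusted p of 0.00815 became 0.0541 without the third array labelled ATF3-CKO. Across the 15 unnamed members, the second array labelled ATF3-CKO was the lowest of its group in 14, and WT replicate 2 was the highest WT array in all 15.

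The first unnamed member of the run had the smallest difference of the 15, and the others followed no order along it. TC1900001366.mm.1 was 4.02-fold higher, at 7.06, 6.56 and 6.93 on the arrays labelled ATF3-CKO against 4.41, 5.10 and 5.02 on the WT arrays, and the other unnamed members were 4.51-fold to 11.9-fold higher. The next probe set past the run, TC1900001382.mm.1, read 3.80, 3.57 and 4.30 on the arrays labelled ATF3-CKO and 3.57, 3.59 and 3.83 on the WT arrays, with groups that overlapped. Of the named genes, 8430431K14Rik was 9.05-fold higher, at 10.53, 10.004 and 10.09 on the arrays labelled ATF3-CKO against 7.00, 7.46 and 6.63 on the WT arrays (adjusted p = 0.00124). Prkg1, 4 numbers before the run, was 3.85-fold higher (adjusted p = 0.00130). Asah2 differed by 0.18 ± 0.13 (SE, adjusted p = 0.532) and Dkk1, a Wnt inhibitor before Prkg1, by 0.02 ± 0.09. Between the run and Asah2, TC1900001387.mm.1 rose 3.42-fold. The 5 unnamed probe sets that part it from the run included 1 that passed the test. Under the 5 other scalings all 15 unnamed members stayed called, with medians of 3.03 to 3.17 on the log2 scale beside 3.12 as deposited. Leaving out 1 array at a time, 12 to 15 of them were called.

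**Figure D4:**
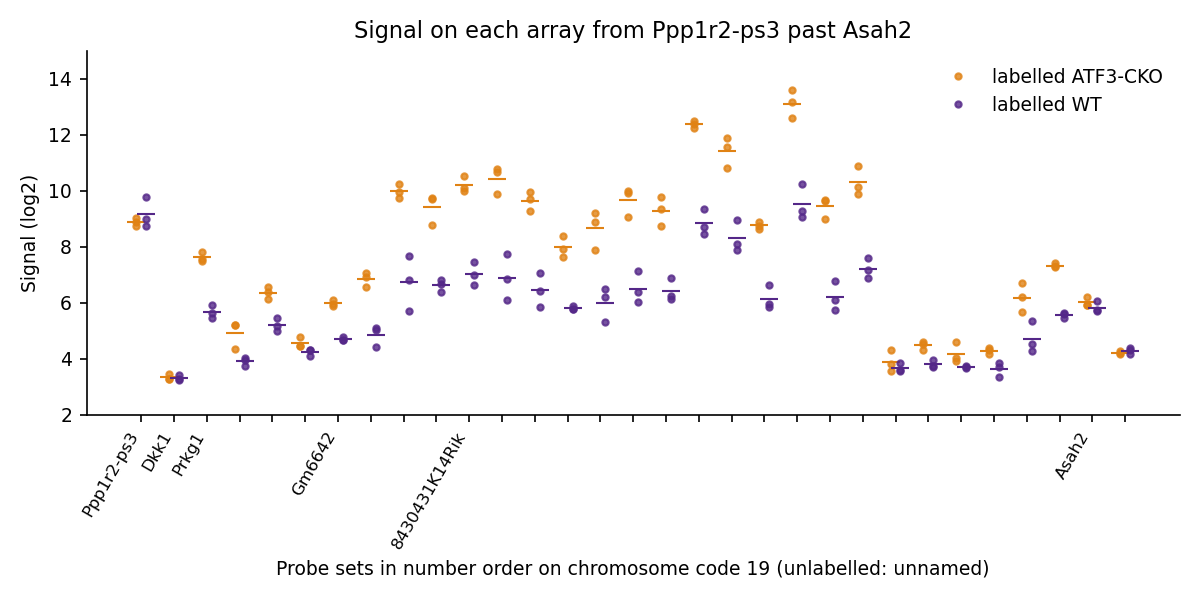
Signal (log2) of each of the 6 arrays for consecutive probe sets of chromosome 19 in number order, arrays labelled ATF3-CKO to the left of the WT arrays in each pair and short lines at the group means. The 15 unnamed probe sets from Gm6642 onward are all higher on the arrays labelled ATF3-CKO, 8430431K14Rik lies among them, and Dkk1 and Asah2 at the borders differ by 0.02 and 0.18.

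A shorter run lay on chromosome 15 between Ext1, which builds heparan sulfate, and Samd12. All 5 of its members were unnamed and rose, by 1.31 to 2.15 on the log2 scale. TC1500001517.mm.1, the largest, read 11.70, 11.01 and 11.27 on the arrays labelled ATF3-CKO against 9.28, 9.80 and 8.44 on the WT arrays, or 4.44-fold (adjusted p = 0.0244). Ext1 differed by 0.49 (adjusted p = 0.0428), and Samd12 by 0.07. These calls were less firm than those on chromosome 19: none of the 5 was called without the third array labelled ATF3-CKO, 2 without the first, 3 without the second, 1 without WT replicate 1 and 3 without WT replicate 3, while their differences stayed over 2-fold each time. Some numbers earlier on the same chromosome, 4 unnamed probe sets from TC1500001495.mm.1 on were 1.23 to 1.47 higher on the log2 scale, and 3 of them rose. On chromosome 6, 3 unnamed probe sets rose next to Mgll, the monoacylglycerol lipase, whose own difference was 1.40 (adjusted p = 0.00955). TC0600001036.mm.1 read 7.27, 7.50 and 7.54 on the arrays labelled ATF3-CKO against 6.27, 6.03 and 6.33 on the WT arrays. The named gene and its unnamed neighbours differed there by like amounts, 1.21 to 1.40.

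In other runs few or no unnamed members passed the test. On chromosome 17, 5 unnamed probe sets past Slc8a1, a sodium-calcium exchanger, were 1.14 to 1.37 higher on the log2 scale and none was called. TC1700002605.mm.1 read 10.71, 9.67 and 10.13 on the arrays labelled ATF3-CKO against 8.35, 9.91 and 8.45 on the WT arrays, and WT replicate 2 lay within the range of the other group. Without WT replicate 2 the adjusted p of the 5 ran from 0.00261 to 0.0526, and 4 were called. On chromosome 10, 32 unnamed probe sets were at least 2-fold higher, but they held only 15 distinct sets of values. The 2 runs of chromosome 10 lay between the cytokine genes Il22 and Ifng, which themselves differed by 0.07 and 0.11. TC1000001409.mm.1, which shares its values with 3 other probe sets, read 9.84, 8.58 and 8.67 on the arrays labelled ATF3-CKO against 7.88, 5.95 and 8.46 on the WT arrays (adjusted p = 0.259). In each of these 2 runs 1 unnamed probe set rose, TC1000001410.mm.1 and TC1000001439.mm.1, which share their values. They read 5.59, 4.86 and 4.87 on the arrays labelled ATF3-CKO against 4.06, 4.06 and 4.18 on the WT arrays (adjusted p = 0.0475). The call was lost without replicate 2 or 3 labelled ATF3-CKO or any WT array, with an adjusted p of 0.0684 to 0.150. A run of 48 probe sets on chromosome 7 had 3 unnamed members and 16 distinct sets of values, and none of the 3 was called.

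The largest falls among unnamed probe sets carried X and Y codes. TC0Y00000551.mm.1 and TC0Y00000552.mm.1, with the same values, read 11.03, 11.43 and 11.28 on the arrays labelled ATF3-CKO against 17.17, 16.65 and 17.04 on the WT arrays. This was 52.1-fold lower (-5.70 ± 0.16 on the log2 scale, SE, adjusted p = 6.36e-05), and the spread within each group was a small part of the gap. The nearest one-symbol probe sets, Orly before and 1700040F15Rik after, differed by 1.40 and 1.30 and did not pass the test. TC0X00003380.mm.1 read 7.74, 7.81 and 7.42 on the arrays labelled ATF3-CKO against 12.82, 11.85 and 12.22 on the WT arrays, or 24.9-fold lower (adjusted p = 0.000312). Its neighbour G530011O06Rik, whose X promoter is printed above, fell 31.6-fold, and read 8.42, 8.51 and 8.64 on the arrays labelled ATF3-CKO against 13.76, 13.20 and 13.55 on the WT arrays. The next unnamed probe sets on X, TC0X00003381.mm.1 to TC0X00003383.mm.1, differed by -0.44 to -0.47 and did not pass the test. TC0Y00000225.mm.1 fell 9.20-fold, at 7.21, 6.71 and 7.45 on the arrays labelled ATF3-CKO against 10.46, 9.82 and 10.70 on the WT arrays. It stands between Mid1, a ubiquitin ligase gene of the pseudoautosomal border (difference 0.04), and Uba1y (-0.0032), and near Erdr1, a pseudoautosomal gene that fell 4.60-fold. These falls were called with any 1 array left out.

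The other large falls stood alone or beside a named gene that fell as well. TC1500001543.mm.1 read 5.02, 5.30 and 5.18 on the arrays labelled ATF3-CKO against 8.03, 7.46 and 8.01 on the WT arrays (6.34-fold lower, adjusted p = 0.000738). It lies next to Sntb1, a syntrophin of the membrane skeleton, which differed by -3.64. TC1700002352.mm.1 lies next to Tnfsf14, a TNF family ligand, and fell 6.11-fold while Tnfsf14 differed by 0.12. TC0700002617.mm.1 was the brightest of these, at 9.52, 9.77 and 9.64 on the arrays labelled ATF3-CKO against 12.46, 12.07 and 11.73 on the WT arrays (5.43-fold lower), between Rabac1 (0.20) and Grik5 (0.06). TC1300002008.mm.1 fell 6.00-fold, beside the predicted gene Gm2848, which differed by -0.78. TC0200000644.mm.1 read 4.94, 5.41 and 5.39 on the arrays labelled ATF3-CKO against 8.73, 6.96 and 8.08 on the WT arrays. Its groups did not overlap, yet WT replicate 2 stood over 1 log2 unit below the other WT arrays, and the adjusted p of 0.0220 became 0.0693, 0.0866 and 0.0940 without replicate 1, 2 and 3 labelled ATF3-CKO, and 0.0503 without WT replicate 3.

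Each of the 9 lower runs held a symbol, and in 8 of them the named gene or microRNA carries more than a predicted name. On chromosome 11 Itgb3, the integrin beta 3 subunit, differed by -2.87 (adjusted p = 0.00192) and its unnamed neighbours TC1100001731.mm.1 and TC1100001732.mm.1 by -1.48 and -1.82, both called. On chromosome 6 Hipk2, a nuclear protein kinase, differed by -1.40 and 3 unnamed neighbours by -1.13 to -1.80, all called. TC0600002111.mm.1 read 7.34, 6.89 and 6.96 on the arrays labelled ATF3-CKO against 8.56, 8.78 and 8.49 on the WT arrays. On chromosome 8 the unnamed members fell further than the named one: TC0800002355.mm.1 and TC0800002356.mm.1 fell by 2.35 and 2.28, while Slc18a1, a vesicular monoamine transporter, differed by -1.03 (adjusted p = 0.0731). Runs of this kind also lay at Fam78b, St8sia4 (a polysialic acid synthase), Rassf8, Ypel2 and Mir30d. At Mir30d, a microRNA, WT replicate 2 was the lowest WT array for both unnamed neighbours, and 1 of these passed the test.

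On the Y code the unnamed probe sets moved as a block. They are 0.906% of the class and held 42.3% of its 2-fold higher members. The median level was 7.93, 7.35 and 7.47 on the arrays labelled ATF3-CKO, against 6.60, 5.57 and 7.01 on the WT arrays. WT replicate 2 stood about 1 log2 unit below the nearest other array. It was the lowest of the 6 arrays for 279 of the 300, and the first array labelled ATF3-CKO was the highest for 242. The median difference was 1.03, 294 of the 300 were positive, and in 274 the groups did not overlap. Only 29 passed the test in the higher direction and 4 in the lower one. Without WT replicate 2 the median difference was 0.74, 79 rather than 152 were at least 2-fold higher, and 104 were called higher. Without WT replicate 3, 72 were called higher, and without any of the other 4 arrays 1 or 2 were. Over the 5 other scalings 14 to 46 were called and the median stayed between 0.95 and 1.08.

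The 300 are not 300 separate measurements, since they held 222 distinct sets of values. Named probe sets of the same code behaved alike: the median difference was 1.18 over 124 one-symbol probe sets, mostly predicted genes and multi-copy families, and 83 of these were at least 2-fold higher. Values for the single-copy genes of the short arm were smaller. Kdm5d, a histone demethylase, differed by 0.17, Eif2s3y, a translation factor subunit, by -0.07, Uty by 0.56 and Usp9y by 0.0070, none past the test. Usp9y averaged 3.41 on the arrays labelled ATF3-CKO and 3.40 on the WT arrays. This is below the highest background control, so its small difference says little. Kdm5d read 8.38, 8.07 and 8.18 on the arrays labelled ATF3-CKO and 8.05, 8.06 and 8.00 on the WT arrays. Leaving out every Y code, 207 unnamed probe sets were at least 2-fold higher and 126 lower, and with medians set equal these were 162 and 159. They were 181 and 139 after quantile normalization and 196 and 129 after cyclic loess. With one-symbol medians set equal they were 166 and 157, and with background control medians set equal 275 and 112. As deposited, the one-symbol counts without Y were 181 and 393.

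**Figure D5:**
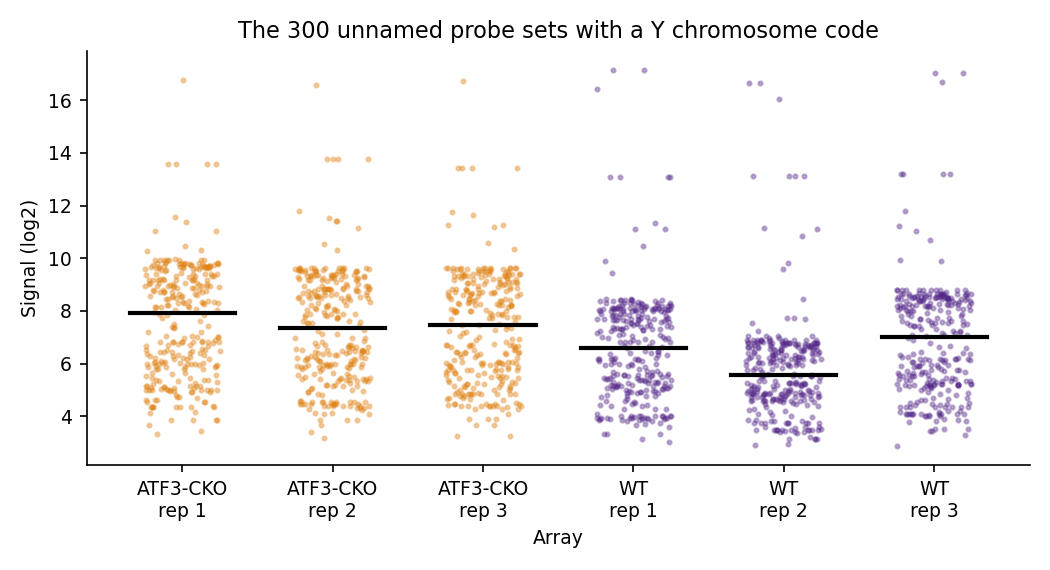
Signal (log2) of the 300 unnamed probe sets with a Y code on each of the 6 arrays, a point per probe set and a black line at the median. The medians are 7.93, 7.35 and 7.47 on the arrays labelled ATF3-CKO and 6.60, 5.57 and 7.01 on the WT arrays, of which replicate 2 is the lowest.

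Sharing of values was not limited to Y. Of the unnamed probe sets 815 had the same 6 values as at least 1 other, in 196 groups, and 67 of these groups spread over several chromosome codes. They were brighter than the rest, with a median level of 8.73 against 3.97, and their median difference was 0.52 against 0.067. Of the 815, 93.0% had a positive difference, 102 were at least 2-fold higher and 28 were called higher. The largest group held 63 probe sets over 18 chromosome codes, at a level of 13.23, with a difference of 0.44 (adjusted p = 0.0585). A group of 18, at a level of 12.28, differed by 0.97 (adjusted p = 0.0777). Counted once each, 292 distinct sets of values were at least 2-fold higher and 128 lower.

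Bright unnamed probe sets leaned the same way. At a level of 12 or more there were 1136, with a median of 14.27, 14.37 and 14.41 on the arrays labelled ATF3-CKO against 14.00, 13.83 and 14.08 on the WT arrays. The 1876 one-symbol probe sets of that brightness had medians of 13.86, 13.89 and 13.95 on the arrays labelled ATF3-CKO and 13.97, 13.87 and 13.96 on the WT arrays. The unnamed medians did not overlap between the groups, and the one-symbol medians did. Of the bright unnamed probe sets 97 rose and 13 fell, and 88.0% were positive, with a median difference of 0.42. The same count over one-symbol probe sets was 67 and 109, with a median of 0.037. WT replicate 2 was the lowest array for 795 of the 1136, and without it the median difference was 0.35. Without replicate 1, 2 or 3 labelled ATF3-CKO 34, 9 and 3 were called higher. Without WT replicate 1, 2 or 3 there were 29, 97 and 140. The median stayed positive under the 5 other scalings, between 0.29 and 0.47. Of the 1136, 284 shared their values with another unnamed probe set, and over the 890 distinct sets of values the median was 0.35.

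The 19 unnamed probe sets of the mitochondrial code were bright, with a median level of 13.10, and 18 of them had a positive difference. TC0M00000025.mm.1 rose, at 12.51, 12.23 and 13.19 on the arrays labelled ATF3-CKO against 10.91, 10.41 and 11.18 on the WT arrays (3.50-fold, adjusted p = 0.0228). That call was lost without replicate 1 or 3 labelled ATF3-CKO or WT replicate 1 (adjusted p of 0.0605 to 0.0807, limma). The brightest of these unnamed probe sets, TC0M00000028.mm.1, did not pass the test (adjusted p = 0.287, limma). It read 17.62, 18.06 and 18.21 on the arrays labelled ATF3-CKO and 17.79, 17.49 and 16.94 on the WT arrays. Among the 101 unnamed probe sets of unplaced contigs the median difference was 0.44 and 8 were at least 2-fold higher. As a named counterpart, 22 of 44 listed long non-coding RNAs were measured, with a median difference of 0.017. Of these Morrbid, which controls the lifespan of short-lived myeloid cells, and Pvt1 rose, and none fell.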

How the data were processed

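Affymetrix Clariom D mouse arrays (the array the labels give, while the study's methods name Clariom S) measured total RNA of 6 BMDM cultures. The authors deposited log2 values after robust multichip analysis (RMA) in Affymetrix Expression Console with global scaling; the sources used here give neither versions nor a genome build. Symbols came from the platform annotation, updated through RefSeq, which changed none.

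The table held 72688 probe sets. The 6732 controls were left out, and 65956 were tested with limma 3.58.1 in R 4.3.3 (lmFit, eBayes, two-sided, Benjamini-Hochberg, group only), 3 arrays labelled ATF3-CKO against 3 labelled WT. The number of arrays limits the precision, and no batch is labelled. In simulated data of the same size, values were independent and normal, and changes were set only in unnamed probe sets above the median level. There 70 of 100 changes of 1 and 98 of 100 changes of 2 on the log2 scale were recovered. Over 65956 probe sets there were 6 false calls. Recovery in the dimmer part of the class, or with deviations shared between probe sets, was not simulated.

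Unnamed probe sets are described one by one where they were among the 10 higher or lower of largest difference past an adjusted p of 0.05, with groups wholly apart and the higher mean above the median level (4.32), or among the 5 brightest, with the nearest one-symbol probe sets. Members of runs, of the mitochondrial code and of shared values were singled out after their values were seen. The members, gene lists (long non-coding RNAs and markers of macrophages, neutrophils, osteoclasts, fibroblasts, lymphocytes and dendritic cells) and tests were chosen with earlier results of these data known. Other scalings, a filter on dim probe sets, other variance settings, array weights, shared values counted once and leaving out each array were tried; leaving out the Y codes was chosen after seeing the data.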

Additional observations from a re-analysis of the deposited data

How the results depend on the processing

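The counts of calls depended most on the processing. Beside 371 unnamed probe sets called higher and 266 lower, equal array medians gave 238 higher, equal background control medians 595 higher, and array weights 1816 higher and 620 lower. Leaving out 1 array at a time gave 44 to 538 higher, 77 to 250 lower and 242 to 583 at least 2-fold higher. Without Y codes, a setting chosen after seeing the data, 207 were at least 2-fold higher. The median difference of the class, 0.071 as deposited, was -0.014 with equal medians, 0.0070 after quantile normalization, -0.0040 with equal one-symbol medians and 0.013 after cyclic loess. Above the median level, unnamed minus one-symbol was 0.074. In the bin from 8 to 9, binned by the mean of the higher group, 7.75% rather than 12.2% were at least 2-fold higher. With the nearest one-symbol probe set in place of the adjacent one, 52.7% rather than 65.2% had a 2-fold higher neighbour. Without Y codes these shares were 17.6% and 46.7%, against 0.993% and 1.18% of all such unnamed probe sets. The count at least 2-fold lower stayed within 1.5 times of 129 under all 17 settings tried. The cause of these changes was not tested. With the replicate number as a block (replicate block), 287 were called higher and 165 lower. The labels do not say whether the numbers pair the samples. Same-numbered arrays correlated at 0.032, -0.088 and -0.075 in their deviations from the group means. Other-numbered arrays correlated at -0.062 to 0.119, a like range, so these values cannot decide it. Low signal limits most of the class, which lies near the background controls.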

Other observations

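Among the one-symbol probe sets, the 9761 predicted genes (symbols of Gm and a number, or ending in Rik) are given beside the unnamed class. Their median level was 4.50 and their median difference 0.088. Of them 112 were at least 2-fold higher and 43 at least 2-fold lower on the arrays labelled ATF3-CKO, so 72.3% of those past 2-fold were higher. This lean rested on the Y codes and on 1 array: without Y codes the counts were 44 higher and 43 lower, and without WT replicate 2 they were 38 and 50. With array medians set equal the median difference was 0.0035. The 18274 one-symbol probe sets outside the predicted, microRNA, small nucleolar and chemoreceptor classes had a median level of 5.43, with 144 at least 2-fold higher and 345 lower, or 29.4% higher. The 601 microRNA probe sets had 5 at least 2-fold higher and 4 lower. The 1775 olfactory, vomeronasal and taste receptors, most of them near the background controls, had a median difference of 0.113, with 3 called higher and 1 lower. That median was 0.028 with array medians set equal, 0.046 after quantile normalization, 0.038 with one-symbol medians set equal, 0.048 after cyclic loess and 0.069 without WT replicate 2.

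The 2168 probe sets with several symbols had a median level of 5.72, with 152 at least 2-fold higher and 29 lower. Of those with a Y code, 134 in all, 108 were at least 2-fold higher, and their array medians were 8.82, 8.55 and 8.46 on the arrays labelled ATF3-CKO against 7.41, 6.22 and 7.88 on the WT arrays, again with WT replicate 2 the lowest.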
